A study of Mus musculus with 6 samples.

Results

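The genes described are 10 components of bone morphogenetic protein (BMP) and transforming growth factor β (TGF-β) signaling in endothelial cells (ECs), chosen by gene symbol from the 56748 genes of the count table. They are the receptor genes *Eng*, *Acvrl1*, *Bmpr2*, *Tgfbr1* and *Tgfbr2*, the inhibitory SMAD genes *Smad6* and *Smad7*, and the target genes *Id1*, *Id2* and *Id3*. Each symbol matched a gene of the table, and all 10 were among the 13107 genes with enough counts to be tested. RNA was sequenced from ECs sorted from the spinal cords of 6 mice at P16, 1 library per mouse. The 3 control mice carried the floxed *Tardbp* allele (genotype Tardbpflox) and no Cre. The 3 TDP-43iΔEC mice carried Cdh5(PAC)-CreERT2 as well, so that tamoxifen-activated Cre, driven by the promoter of the VE-cadherin gene *Cdh5*, removes exon 3 of *Tardbp* in ECs. All 6 mice received tamoxifen (1 mg/mL) from P5 to P7, and the control mice therefore match the drug but not the presence of Cre. *Tardbp* encodes TDP-43, a DNA- and RNA-binding protein that regulates RNA processing. The comparison asks how the RNA of these signaling genes differed when TDP-43 had been deleted from the endothelium.

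In ECs, BMP9 and BMP10 from the circulation bind a complex of the type I receptor ALK1 (*Acvrl1*), a type II receptor such as BMPR2, and the coreceptor endoglin (*Eng*), which leads to phosphorylation of SMAD1, SMAD5 and SMAD9. TGF-β binds the type II receptor TGFBR2, which recruits the type I receptor ALK5 (*Tgfbr1*) and leads to phosphorylation of SMAD2 and SMAD3. SMAD6 and SMAD7 are made in response to these signals and inhibit them, and the ID proteins are transcriptional regulators whose genes are classic targets of BMP signaling. Inherited mutations of *ENG* and *ACVRL1* cause hereditary hemorrhagic telangiectasia, and mutations of *BMPR2* cause pulmonary arterial hypertension. Loss of TGF-β receptors from brain endothelium in mice is known to cause hemorrhage.

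In counts scaled for library total and composition, *Tgfbr2* and *Id3* were the members whose 3 TDP-43iΔEC mice all lay below the 3 control mice. The same held for 7.93% of all tested genes. The promoters of *Tgfbr2* and *Id3* are shown for that reason. The sequences are the 250 bases before the start site in RefSeq's table for GRCm38.p6, which held an entry for 7 of the 10 genes. Capitals mark the letters of 2 motifs bound by SMAD proteins, searched on both strands: GGCGNC, the GC-rich SMAD motif, and CAGAC, the SMAD binding element.

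*Tgfbr2* promoter, chr9:116175364-116175613, minus strand: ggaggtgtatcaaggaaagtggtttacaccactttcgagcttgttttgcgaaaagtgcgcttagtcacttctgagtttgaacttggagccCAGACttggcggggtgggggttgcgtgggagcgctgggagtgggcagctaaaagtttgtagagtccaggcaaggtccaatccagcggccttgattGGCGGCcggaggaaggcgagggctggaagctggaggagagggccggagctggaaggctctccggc

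*Id3* promoter, chr4:136143572-136143821, plus strand: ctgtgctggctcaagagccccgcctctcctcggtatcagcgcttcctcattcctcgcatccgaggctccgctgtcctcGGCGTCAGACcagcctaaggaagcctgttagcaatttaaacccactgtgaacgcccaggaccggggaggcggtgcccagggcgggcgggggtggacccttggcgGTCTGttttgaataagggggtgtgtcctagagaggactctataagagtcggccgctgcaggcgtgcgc

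The *Tgfbr2* promoter held CAGAC from position -160 and GGCGNC from position -65, counted from the start site. In the *Id3* promoter the 2 motifs overlapped, with GGCGNC from -172 and CAGAC from -167, and a further CAGAC match began at -68. Such matches are common, since GGCGNC was found in 30.7% and CAGAC in 42.2% of the 32851 promoter entries. The other members with an entry, *Bmpr2*, *Eng*, *Tgfbr1*, *Smad6* and *Id2*, whose groups overlapped, also held GGCGNC or CAGAC. The palindrome GTCTAGAC was found in 0.167% of the entries and in 0 of the 8 entries of the members.

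TDP-43 is known to bind RNA rich in UG repeats, so repeats of at least 6 TG units were counted on the sense strand of each gene in GRCm39, introns included. The 7 receptor and inhibitory SMAD genes each held at least 1 such tract and the 3 *Id* genes held 0, whereas 66.1% of the tested genes held at least 1. The *Id* genes are short, at 2259 to 13327 bp, and the 7 others span 17222 to 115630 bp, beside a median of 22573 bp over tested genes. A short gene has less room for a tract, and presence was not compared at equal length. *Tgfbr2* held the most of the 10 genes, 20 tracts or 21.9 per 100 kb, of which 1 lay within annotated exons. Over all tested genes the density was 10.5 per 100 kb. *Smad7* held 4 (14 per 100 kb), 1 of them within exons and the longest with 56 bases, and *Tgfbr1* held 7 (11.3 per 100 kb). The density was below that of all tested genes in *Bmpr2* (7 tracts, 6.05 per 100 kb), *Acvrl1* (1 tract, 5.81), *Smad6* (4 tracts, 5.76) and *Eng* (2 tracts, 5.11). The longest tracts of *Tgfbr2*, *Tgfbr1* and *Eng* lay in introns and are shown as DNA with the repeats in capitals and 10 bases on each side.

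*Tgfbr2*, chr9:115974168-115974235, minus strand: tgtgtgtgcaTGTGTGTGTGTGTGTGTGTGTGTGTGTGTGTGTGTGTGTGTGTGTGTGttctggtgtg

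*Tgfbr1*, chr4:47372041-47372104, plus strand: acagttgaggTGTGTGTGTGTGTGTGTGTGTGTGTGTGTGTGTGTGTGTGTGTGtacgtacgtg

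*Eng*, chr2:32551583-32551650, plus strand: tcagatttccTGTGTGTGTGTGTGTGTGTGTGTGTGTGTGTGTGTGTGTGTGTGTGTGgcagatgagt

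The repeats have 48 bases in *Tgfbr2*, 44 in *Tgfbr1* and 48 in *Eng*. Binding of TDP-43 to these sequences was not measured, and counts per gene do not show how a transcript was spliced.

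The libraries held 25704871 to 47270654 counts, so that 3 counts corresponded to 0.0617 to 0.116 CPM (counts scaled to a common library total, with TMM factors for library composition). *Tardbp* was at 55.3, 61.9 and 58.5 CPM in control mice and at 26.6, 16.1 and 11.8 CPM in TDP-43iΔEC mice. Its log2 fold change with its standard error (SE) was -1.62 ± 0.41. The adjusted p was 0.287 in limma (Benjamini-Hochberg method over all tested genes), 0.373 in edgeR and 0.0221 in DESeq2. The count covers the whole gene, so transcripts that lack only the floxed exon are included in it. The 8 endothelial markers summed to 10435 to 13809 CPM in control and 9422 to 10940 CPM in TDP-43iΔEC mice, so the labelled cell type was present in every library. *Flt1*, *Tek* and *Kdr*, which encode endothelial receptors, had groups that did not overlap and were lower in TDP-43iΔEC mice, with log2 fold changes of -0.69, -0.35 and -0.26, and the groups of the other 5 markers overlapped. Of these 3, *Flt1* had the smallest adjusted p in limma, 0.0635, and *Flt1* and *Kdr* are among the 5 markers used for the endothelial scaling. Mural cell markers reached 925 CPM, oligodendrocyte markers 590 CPM, fibroblast markers 44.2 CPM, astrocyte markers 27.2 CPM, neuronal markers 10.3 CPM and microglial markers 8.14 CPM, and the neuronal marker *Tubb3* and the macrophage marker *Adgre1* were at 0 in every library. The 4 hemoglobin genes summed to 6900 to 10510 CPM in control and 2023 to 2872 CPM in TDP-43iΔEC mice. Control mouse 2 and TDP-43iΔEC mouse 1 stood apart from the other libraries in multidimensional scaling. Values without them are given below for some of the genes.

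None of the 10 members passed an adjusted p of 0.05 in limma. Over all tested genes 18 passed, or 0.137%, 14 of them lower and 4 higher in TDP-43iΔEC mice. The 4 hemoglobin genes, which mark red blood cells, were among the 14 lower genes. With rRNA, hemoglobin and mitochondrial genes left out 13 genes passed, 9 of them lower. The members' fold changes were below 0 for 9 genes and above 0 for *Id2*, with a median log2 fold change of -0.34 beside -0.02 over all tested genes, of which 50.7% were below 0. *Tgfbr2* and *Id3* had an unadjusted p under 0.05 in the lower direction, as did 5.0% of all tested genes (656 of 13107). The same pair had groups that did not overlap in TMM-scaled CPM, with the TDP-43iΔEC mice lower, as had 7.93% of all tested genes. For *Id3* both results depended on the scaling, and its values under other scalings are given below. At an unadjusted p under 0.05, edgeR also gave *Tgfbr2* and *Id3* as lower, beside 3.75% of all tested genes, with 0 members past its adjusted threshold, while DESeq2 called 1 member, *Tgfbr2*, beside 1.10% of genes called lower. Fewer cells of a type and less RNA per cell cannot be told apart in such bulk samples.

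**Figure D1:**
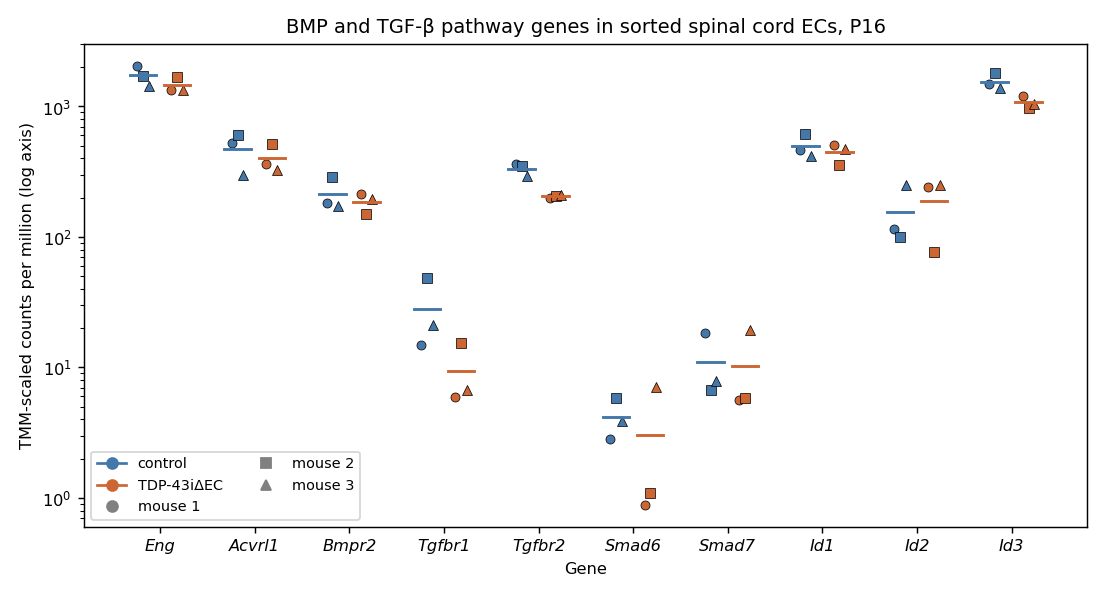
Level of the 10 genes in each mouse in TMM-scaled CPM, on a log axis. Symbols are single mice (blue, control; orange, TDP-43iΔEC) and bars are group means. The 3 TDP-43iΔEC mice lie below the 3 control mice for *Tgfbr2* and *Id3*, and the groups overlap for the other 8 genes.

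The estimated fold changes of *Tgfbr2* and *Tgfbr1*, the receptors of the TGF-β branch, were larger in size than those of the 3 other receptor genes among the 10. Their 95% intervals overlapped those of the 3 others, and a difference between the branches was not tested. *Tgfbr2* (chromosome 9 of GRCm39 from 115913361 to 116004800, minus strand), the type II receptor that binds TGF-β, was at 360.6, 349.4 and 293.0 CPM in control mice 1, 2 and 3 and at 197.4, 205.0 and 210.4 CPM in TDP-43iΔEC mice. The TDP-43iΔEC mice lay close together, and the lowest control mouse was above all of them. The means were 334.3 ± 36.2 and 204.2 ± 6.54 CPM (SD, n = 3 mice each). On the log2 scale the change was -0.71 (SE 0.17, 95% interval -1.10 to -0.32), with an adjusted p = 0.271 in limma. The adjusted p was 0.373 in edgeR's quasi-likelihood test and 0.0140 in DESeq2's Wald test, and over 17 alternatives it ranged from 0.0140 to 0.651. The log2 fold change without any 1 mouse ranged from -0.81 to -0.66, and without control mouse 2 and TDP-43iΔEC mouse 1 it was -0.65. The exact permutation test of 3 mice against 3 gave p = 0.1, the smallest that this design allows.

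*Tgfbr1* (chromosome 4 from 47353134 to 47414931, plus strand), which encodes the type I receptor ALK5, was at 14.8, 48.6 and 21.3 CPM in control mice and at 5.88, 15.4 and 6.75 CPM in TDP-43iΔEC mice. The groups overlapped, because TDP-43iΔEC mouse 2 exceeded control mouse 1, and control mouse 2 was the highest library. Its log2 fold change of -1.65 was the largest in size among the 10 genes in this fit and also among the least precise (SE 0.81, 95% interval -3.48 to 0.19; adjusted p = 0.561 in limma). Without control mouse 2 it was -1.15, and without control mouse 2 and TDP-43iΔEC mouse 1 it was -0.75.

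The receptors of the BMP9 and BMP10 branch had smaller estimated fold changes, with overlapping groups. *Eng* (chromosome 2 from 32535543 to 32574661, plus strand), the coreceptor endoglin, was at 2045, 1706 and 1442 CPM in control mice and at 1337, 1688 and 1326 CPM in TDP-43iΔEC mice. TDP-43iΔEC mouse 2 was within the control range, and the log2 change was -0.25 (95% interval -0.61 to 0.10; adjusted p = 0.614 in limma). *Acvrl1* (chromosome 15 from 101025996 to 101043217, plus strand), encoding ALK1, was at 521.6, 601.0 and 299.4 CPM in control mice and at 361.8, 519.5 and 326.2 CPM in TDP-43iΔEC mice. All 3 TDP-43iΔEC mice were inside the control range, and the log2 fold change was -0.20 (95% interval -0.85 to 0.44; adjusted p = 0.834 in limma). It turned to 0.03 when libraries were scaled to 5 endothelial marker genes and to 0.07 without control mouse 2 and TDP-43iΔEC mouse 1.

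*Bmpr2* (chromosome 1 from 59802544 to 59918173, plus strand), the type II BMP receptor, was at 180.4, 285.9 and 171.7 CPM in control mice and at 211.7, 150.8 and 196.1 CPM in TDP-43iΔEC mice. Control mouse 2 was the highest library and the other 5 lay between 150.8 and 211.7 CPM. Its log2 change was -0.15 (95% interval -0.72 to 0.43; adjusted p = 0.873 in limma), and it was 0.07 without control mouse 2. With scaling by library size alone it was 0.04 and with scaling to endothelial markers 0.09. The intervals of *Eng*, *Acvrl1* and *Bmpr2* include 0 and reach -0.61, -0.85 and -0.72.

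The inhibitory SMAD genes had the lowest control levels of the 10 and varied widely between mice. *Smad6* (chromosome 9 from 63860341 to 63929793, minus strand), which mainly restrains BMP receptors, was at 2.84, 5.80 and 3.90 CPM in control mice and at 0.884, 1.09 and 7.10 CPM in TDP-43iΔEC mice. TDP-43iΔEC mouse 3 was the highest of the 6 libraries and the other TDP-43iΔEC mice were the lowest. Their spread left a log2 change of -1.22 (95% interval -4.39 to 1.95; adjusted p = 0.797 in limma), and it was -0.47 in edgeR, -0.44 in DESeq2, -2.01 to -0.60 with each mouse left out and -0.37 without control mouse 2 and TDP-43iΔEC mouse 1. *Smad7* (chromosome 18 from 75500374 to 75529006, plus strand), which inhibits both branches, was at 18.2, 6.76 and 7.89 CPM in control mice and at 5.66, 5.78 and 19.5 CPM in TDP-43iΔEC mice. In each genotype 1 mouse was far above the others, control mouse 1 and TDP-43iΔEC mouse 3. For this gene the log2 change was -0.43 (95% interval -2.20 to 1.34; adjusted p = 0.88 in limma). It was 0.02 without control mouse 1 and -0.25 without control mouse 2 and TDP-43iΔEC mouse 1.

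Among the target genes, the genotypes did not overlap in TMM-scaled CPM for *Id3* and overlapped for *Id1* and *Id2*. None of the 3 passed the adjusted threshold in limma. *Id3* (chromosome 4 from 135870808 to 135873066, plus strand) was at 1475, 1798 and 1377 CPM in control mice and at 1211, 976.9 and 1048 CPM in TDP-43iΔEC mice. Every control mouse was above every TDP-43iΔEC mouse with this TMM scaling. As a share of all counts in the library, TDP-43iΔEC mouse 1 (58897 of 45010088) was above control mouse 3 (60049 of 47270654). The means were 1550 ± 220.3 and 1079 ± 120.2 CPM (SD, n = 3 mice each). This gave a log2 change of -0.50 (SE 0.14, 95% interval -0.82 to -0.18) and an adjusted p = 0.360 in limma. The adjusted p was 0.561 in edgeR and 0.1405 in DESeq2, and over the alternatives it ranged from 0.1405 to 0.698. Leaving out each mouse gave log2 fold changes from -0.61 to -0.40. With scaling by library size alone the log2 change was -0.31 (unadjusted p = 0.0565 in limma). With scaling to endothelial markers it was -0.27 (unadjusted p = 0.226 in limma).

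*Id1* (chromosome 2 from 152566218 to 152579544, plus strand), a canonical target of ALK1 signaling in ECs, was at 464.0, 615.2 and 417.8 CPM in control mice and at 504.6, 359.0 and 471.0 CPM in TDP-43iΔEC mice. The groups overlapped, with TDP-43iΔEC mouse 2 lowest and control mouse 2 highest, and the log2 fold change was -0.14 (95% interval -0.60 to 0.31; adjusted p = 0.832 in limma). It was 0.01 without control mouse 2, 0.04 with scaling by library size alone and 0.09 with scaling to endothelial markers. *Id2* (chromosome 12 from 25143798 to 25147282, minus strand) was at 115.1, 99.1 and 248.0 CPM in control mice and at 239.4, 76.2 and 248.2 CPM in TDP-43iΔEC mice. Both genotypes held low and high libraries, and the log2 fold change was 0.25 (95% interval -0.87 to 1.37; adjusted p = 0.889 in limma). It was -0.12 with sample quality weights, -0.01 without control mouse 2, -0.10 without TDP-43iΔEC mouse 1 and -0.34 without both. In GENCODE M39, 36.2% of the exon bases of *Id2* overlap genes on the opposite strand, beside 13.7% for *Id1* and 11.8% for *Id3*. The counts were made with GENCODE M30, and the quantification is not stated to use strand.

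**Figure D2:**
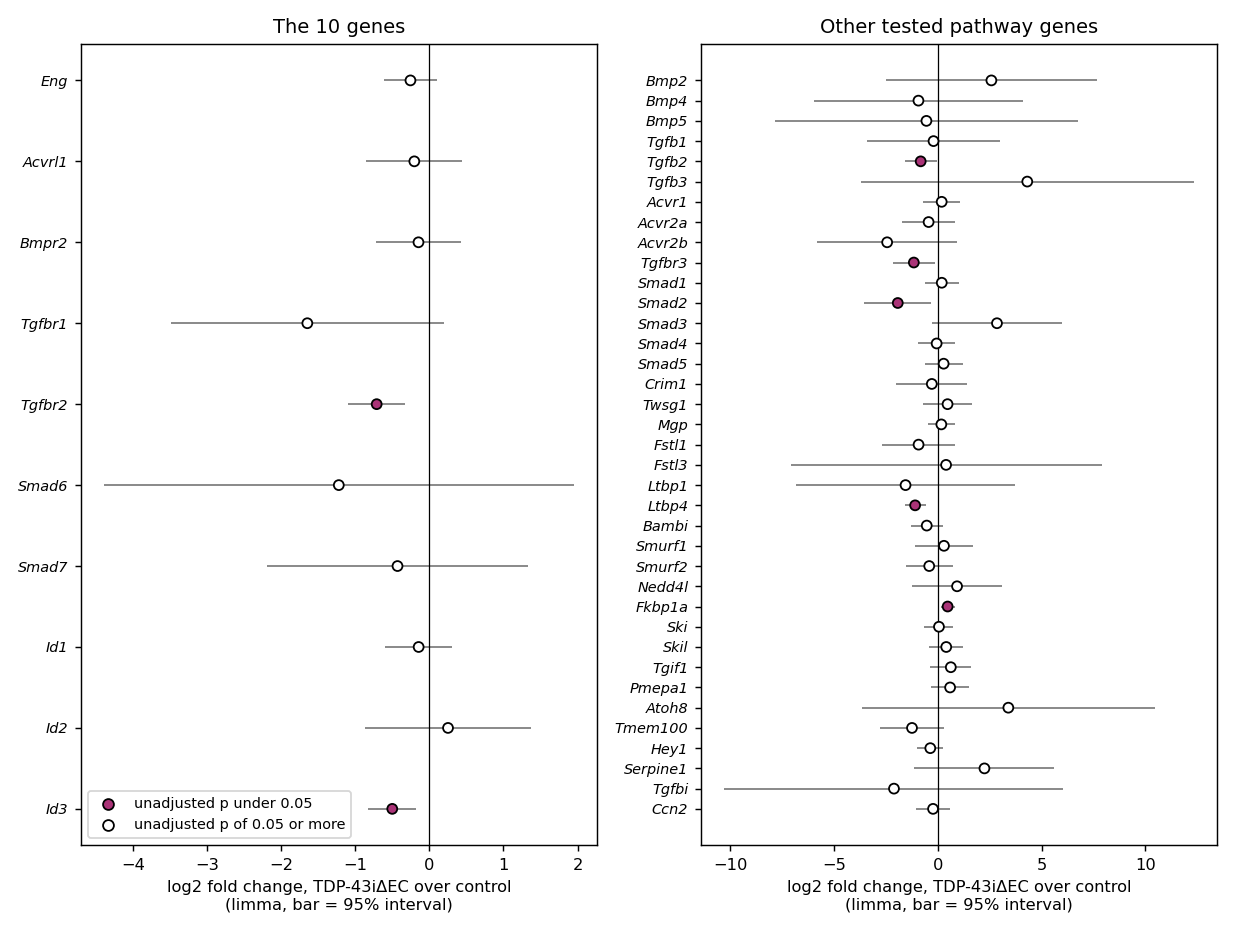
Log2 fold change of TDP-43iΔEC over control mice with its 95% interval from limma, for the 10 genes (left) and the 37 other tested BMP and TGF-β genes (right; the axes differ in range). Filled points have an unadjusted p under 0.05, which holds for *Tgfbr2* and *Id3* on the left and for *Tgfb2*, *Tgfbr3*, *Smad2*, *Ltbp4* and *Fkbp1a* on the right.

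Ratios of members within a library do not depend on how libraries are scaled, and 6 were compared. The log2 ratio of *Id1* to *Id3* was -1.67, -1.55 and -1.72 in control mice and -1.26, -1.44 and -1.15 in TDP-43iΔEC mice. It was higher in all 3 TDP-43iΔEC mice than in any control mouse, by 0.36 in the mean (exact permutation test, 2-sided, p = 0.1, the smallest possible, adjusted p = 0.6 over the 6 ratios). With each mouse left out the difference ranged from 0.29 to 0.44. The 5 other ratios overlapped between the genotypes. The log2 ratio of *Tgfbr2* to *Tgfbr1* differed by 0.84, that of *Smad6* to *Smad7* by -0.87, that of *Id1* to *Id2* by -0.39, that of *Eng* to *Acvrl1* by -0.04 and that of *Bmpr2* to *Acvrl1* by 0.04, with exact permutation p values from 0.3 to 0.9 before adjustment.

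**Figure D3:**
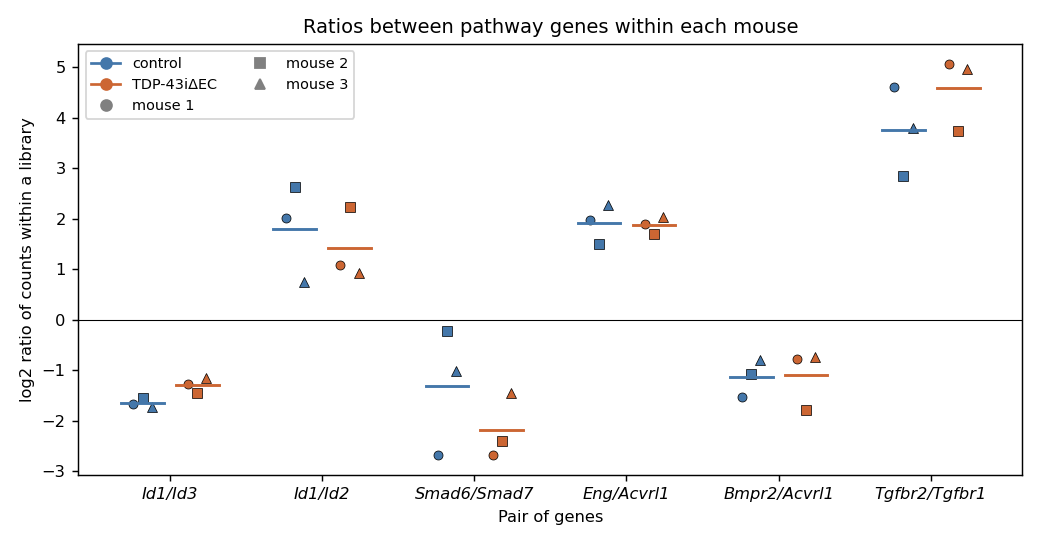
Log2 ratio of counts of gene pairs within each library. Symbols are single mice (blue, control; orange, TDP-43iΔEC) and bars are group means. For *Id1* to *Id3* the TDP-43iΔEC mice lie from -1.44 to -1.15 and the control mice from -1.72 to -1.55, and the genotypes overlap for the other 5 pairs.

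Levels were compared between genes as CPM per kilobase of exon annotated in GENCODE M39. The counts were made with GENCODE M30, and the effect of this mismatch on the levels was not tested. In control mice *Id3* was highest at 865.3 ± 123.0 CPM per kilobase (SD, n = 3), above 99.8% of the tested genes. *Id1* and *Eng* followed at 281.1 ± 58.1 and 221.9 ± 38.8 CPM per kilobase, and their ranges overlapped. *Acvrl1*, *Id2* and *Tgfbr2* had 62.7, 44.2 and 38.0 CPM per kilobase, and neighbors in this order overlapped in their control ranges. *Bmpr2* was lower at 11.8 CPM per kilobase, apart from *Tgfbr2* and from *Tgfbr1*. *Tgfbr1*, *Smad7* and *Smad6* had 4.26, 2.31 and 1.18 CPM per kilobase, with overlapping neighbors, and *Smad6* stood above 30.4% of the tested genes. In control mice *Acvrl1* thus had a higher level than *Tgfbr1*, the other type I receptor of the list, in every library. The order was the same in TDP-43iΔEC mice for 6 of the 10 genes, while *Id2* and *Acvrl1*, and *Smad7* and *Tgfbr1*, exchanged places.

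The ligands, other receptors, SMADs, modulators, regulators and further targets of the pathway formed a list of 56 genes, of which 37 were tested. None passed an adjusted p of 0.05 in limma or edgeR, and DESeq2 called *Ltbp4* as lower, beside 1.10% of genes called lower. At an unadjusted p under 0.05 in limma 4 were lower (*Ltbp4*, *Smad2*, *Tgfbr3* and *Tgfb2*) and 1 was higher (*Fkbp1a*). The shares of all tested genes were 5.0% in the lower and 4.26% in the higher direction. The median log2 fold change of the 37 genes was -0.06, with 19 genes below 0 and 18 above. Groups did not overlap for 3 genes in the lower direction (*Ltbp4*, *Tgfbr3* and *Acvr2b*) and for 2 in the higher (*Fkbp1a* and *Smad3*). The shares of all tested genes were 7.93% in the lower and 7.40% in the higher direction.

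Of 12 ligand genes 6 were tested. *Gdf2* and *Bmp10*, which encode BMP9 and BMP10, had 0 counts in every library, which allows levels of up to 0.0617 to 0.116 CPM. *Tgfb2*, which encodes the ligand TGF-β2 and had the highest mean of the ligands, was at 141.9, 70.5 and 107.4 CPM in control mice and at 53.5, 51.5 and 75.8 CPM in TDP-43iΔEC mice. TDP-43iΔEC mouse 3 exceeded control mouse 2, and the log2 change was -0.83 (SE 0.34), at an adjusted p = 0.513 in limma. Of 7 other receptor genes 4 were tested. *Tgfbr3*, which encodes the coreceptor betaglycan, was at 48.0, 71.1 and 49.8 CPM in control mice and at 35.8, 12.5 and 29.1 CPM in TDP-43iΔEC mice. The groups did not overlap, with a log2 change of -1.16 (SE 0.44) at an adjusted p = 0.488 in limma. *Acvr2b*, an activin type II receptor, was at 8.97, 11.2 and 2.82 CPM in control mice and at 0.596, 1.38 and 2.39 CPM in TDP-43iΔEC mice. Its groups did not overlap either, and its log2 change was -2.44 (SE 1.49) with an adjusted p = 0.614 in limma, and -1.48 without control mouse 2 and TDP-43iΔEC mouse 1. *Bmpr1b* had 0 counts in every library.

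Among 6 receptor-regulated and common SMAD genes 5 were tested. *Smad1*, a SMAD of the BMP branch with the highest mean CPM of these genes, was at 37.3 to 66.1 CPM in control and 44.7 to 75.3 CPM in TDP-43iΔEC mice, with a log2 fold change of 0.19 (95% interval -0.63 to 1.01). *Smad2*, of the TGF-β branch, was at 26.9, 43.0 and 27.8 CPM in control mice and at 3.62, 12.3 and 35.6 CPM in TDP-43iΔEC mice. TDP-43iΔEC mouse 3 lay within the control range. Its log2 change was -1.93 in limma (adjusted p = 0.473) and -0.92 in edgeR (adjusted p = 0.9999), and without TDP-43iΔEC mouse 1 and control mouse 2 it was -0.45 in limma. *Smad3*, the other SMAD of that branch, was at 49.0, 0.217 and 40.3 CPM in control mice and at 67.2, 50.1 and 59.7 CPM in TDP-43iΔEC mice, so its log2 change of 2.85 (SE 1.38), at an adjusted p = 0.558 in limma, includes a control library with 9 counts. It was 0.98 in edgeR, 1.04 in DESeq2 and 0.41 in limma without control mouse 2.

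Among 15 extracellular modulators 7 were tested, and *Grem1*, *Bmper* and *Fst*, which encode BMP and activin binding proteins, had 0 counts in every library. *Ltbp4*, which encodes a latent TGF-β binding protein of the extracellular matrix, had the highest mean of this group and the smallest p of the list. It was at 648.2, 790.6 and 504.9 CPM in control mice and at 349.3, 298.4 and 237.3 CPM in TDP-43iΔEC mice. Every TDP-43iΔEC mouse was below every control mouse. The log2 fold change was -1.09 (SE 0.22, 95% interval -1.60 to -0.59), with an adjusted p = 0.195 in limma, 0.299 in edgeR and 0.00105 in DESeq2. Over 17 alternatives its log2 fold change was from -1.26 to -0.86. Fibroblast markers summed to 37.4 to 44.2 CPM in control mice and to 39.8, 39.8 and 12.6 CPM in TDP-43iΔEC mice. Mural cell markers summed to 522.4 to 890.1 CPM in control mice and to 451.8, 924.7 and 392.1 CPM in TDP-43iΔEC mice. The part of fibroblasts and mural cells in the result was not tested.

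Of 9 intracellular and membrane regulators 9 were tested. *Fkbp1a*, which encodes FKBP12, a protein that binds type I receptors and holds them inactive, was at 603.6, 445.7 and 530.7 CPM in control mice and at 729.8, 730.6 and 715.7 CPM in TDP-43iΔEC mice. The TDP-43iΔEC mice were all higher, with a log2 change of 0.47 (SE 0.15) at an adjusted p = 0.390 in limma (unadjusted p = 0.0108). Without control mouse 2 and TDP-43iΔEC mouse 1 the log2 change of *Fkbp1a* was 0.35, with an unadjusted p = 0.1145 in limma. Of 7 further target genes 6 were tested. *Ccn2*, a target of TGF-β signaling with the highest mean of these, was at 80.4 to 108.6 CPM in control and 51.3 to 151.9 CPM in TDP-43iΔEC mice, with a log2 fold change of -0.23 (95% interval -1.04 to 0.58).

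For each member, the tested gene whose profile over the 6 libraries was most like it was found by the root mean square (RMS) difference of log2 CPM centered on each gene's mean. The nearest gene to *Eng* was *Nos3*, which encodes endothelial nitric oxide synthase, at an RMS difference of 0.054. *Notch1*, which encodes a receptor of endothelial cells, was nearest to *Id3* at 0.061, and *Bsg*, which encodes basigin, was nearest to *Tgfbr2* at 0.074. *Acvrl1* was nearest to *Cab39l* at 0.056, *Bmpr2* to *Mfn1* at 0.059 and *Id1* to *Agpat3* at 0.067. The low or variable genes had less close neighbors, with *Id2* at 0.16 from *Gm14305*, *Smad7* at 0.22 from *Pus3*, *Tgfbr1* at 0.23 from *Tmem86a* and *Smad6* at 0.23 from a gene without a symbol. With 6 libraries and 13107 genes, some profiles are close to each other whatever the genes are.

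**Figure D4:**
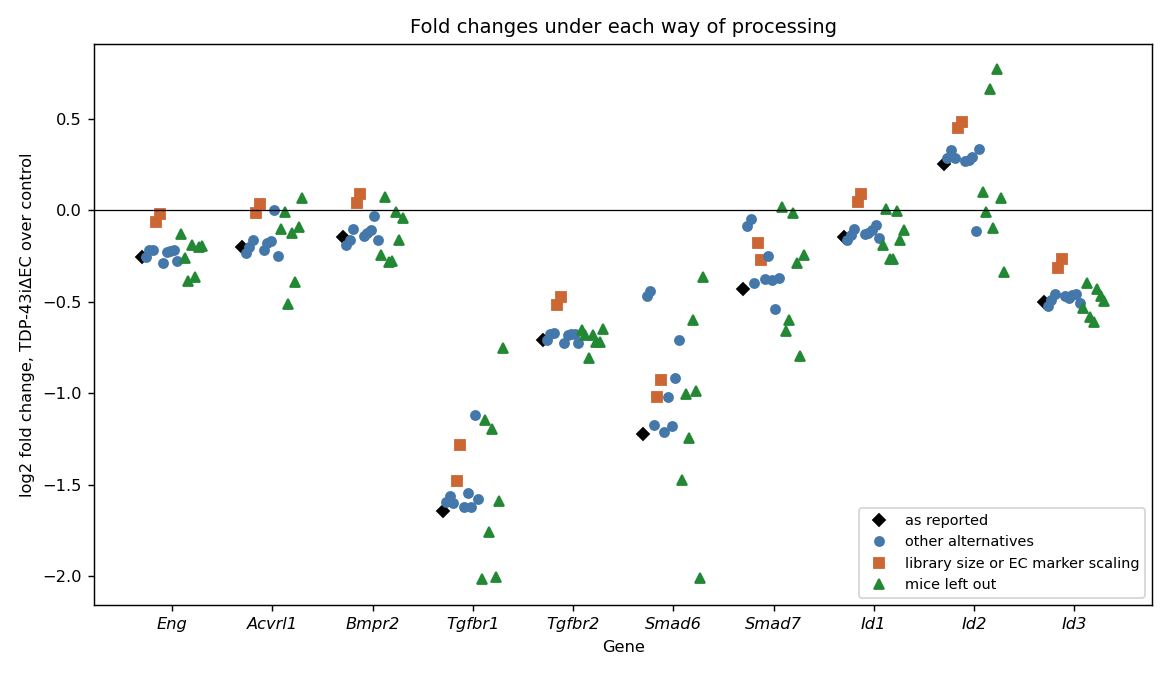
Log2 fold change of the 10 genes as reported (black diamonds), with scaling by library size or to 5 endothelial markers (orange squares), with mice left out (green triangles) and under the other alternatives (blue circles). All points of *Tgfbr2* lie between -0.81 and -0.47 and all points of *Id3* between -0.61 and -0.27, while points of *Acvrl1*, *Bmpr2*, *Smad7*, *Id1* and *Id2* lie on both sides of 0.

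Scaling moved all genes together. The median log2 fold change of all tested genes was -0.02 with TMM, 0.18 with library size alone and 0.23 with scaling to endothelial markers. Fold changes below 0 were found for 9 of the 10 genes with TMM, 7 with library size alone and 6 with scaling to endothelial markers. Relative to the median, *Tgfbr2* was at -0.70 under each of the 3 scalings, and *Id3* at -0.48, -0.49 and -0.49. Because scaling shifts all genes almost alike, values relative to the median hardly change with it and are no test of the scaling. Of the 10 genes, 9 lay below the median under each of the 3 scalings. The number was 7 with sample quality weights, 7 without TDP-43iΔEC mouse 2 and 6 without control mouse 2. Without control mouse 2 the median of all genes was -0.17, and relative to it *Tgfbr2* was at -0.51 and *Id3* at -0.23. Oligodendrocyte markers were at 295.5 to 590.2 CPM in control mice and at 460.6, 53.9 and 14.7 CPM in TDP-43iΔEC mice 1, 2 and 3, and their part in the results was not tested. The share of counts from 18S ribosomal RNA was 14.8%, 14.8% and 18.5% for the control libraries, and the TDP-43iΔEC libraries were all lower at 8.04%, 8.18% and 13.6%. Its part in the results was not tested. The hemoglobin genes, which mark red blood cells, were lower in the TDP-43iΔEC mice than in the control mice, as *Tgfbr2* and *Id3* were. The part of red blood cells in the results was not tested. With rRNA, hemoglobin and mitochondrial genes left out the log2 fold changes were -0.68 for *Tgfbr2* and -0.46 for *Id3*. Leaving these genes out changes the library totals and scaling factors only, and it does not remove other RNA of such cells.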

How the data were processed

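RNA-Seq was performed on ECs sorted by flow cytometry from spinal cords of 3 control and 3 TDP-43iΔEC mice. Libraries were prepared with SMARTseq2 from 0.2 to 3.1 ng of RNA and 15 or 20 PCR cycles, which were not given per library, and no molecular identifiers are described, so counting limits cover counting error only. The authors aligned reads to GRCm39 with STAR 2.7.8a and deposited expected counts per gene (GENCODE M30) from RSEM 1.3.0, as whole numbers without scaling. Groups were taken from the sample labels, and 0 sample columns were left unassigned.

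The counts were fitted here with limma 3.58.1 (voom) in R 4.3.3, with TMM factors and the default low-count filter (filterByExpr) from edgeR 4.0.16, no covariate and Benjamini-Hochberg adjustment over all tested genes (threshold 0.05). This follows the test named in the study's methods, and the filter and scaling were chosen here. Because SMARTseq2 copies full transcripts, levels were divided by the exon length of GENCODE M39 on GRCm39. The procedure was tested on simulated counts with 200 genes changed, and the outcome is not given here. Alternatives were edgeR's quasi-likelihood test, DESeq2 1.42.0, other scalings and filters, quality weights, the replicate number as a block, and each mouse left out. Leaving out control mouse 2 and TDP-43iΔEC mouse 1 together was added after seeing the data. The members, lists and tests were chosen with earlier results of these data known. Named genes are the 10 members, *Tardbp*, pathway genes with an unadjusted p under 0.05, the gene of highest mean CPM in each role, genes at 0 in every library and the gene nearest in profile to each member. *Acvr2b* and *Smad3* were named after their values were seen.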

Additional observations from a re-analysis of the deposited data

How the results depend on the processing

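The count of genes past an adjusted p of 0.05 was 18 in limma (77.8% of them lower) and depended on the processing. It was 0 in edgeR (848 genes at an unadjusted p under 0.05), 247 in DESeq2 (57.5% lower), 10 with scaling by library size (60% lower), 1 with scaling to endothelial markers (0 lower), 76 without a filter on low counts (64.5% lower), 39 with at least 10 counts in every library and 31 at an adjusted p under 0.1. It ranged from 0 to 13 with each mouse left out (3 without control mouse 1, 10 without control mouse 2, 0 without TDP-43iΔEC mouse 1 with 960 at an unadjusted p under 0.05, 3 without TDP-43iΔEC mouse 2 and 2 without TDP-43iΔEC mouse 3), with fewer mice in the fit, and was 0 without control mouse 2 and TDP-43iΔEC mouse 1 together (1026 at an unadjusted p under 0.05). Members called were 0 in limma and 1 in DESeq2, and pathway genes called were 0 and 1. Both counts were 0 in every limma fit that left out mice, and DESeq2 was not run with mice left out. The cause of these shifts was not tested. The labels do not state that the mouse numbers pair the mice. Deviations of same-numbered mice correlated at -0.06, -0.13 and -0.03, and 0 of 6 mice correlated best with their own number. With 3 mice per group these correlations cannot decide whether mice were paired. With the number as a replicate block 22 genes were called, of which 0 were members.

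The log2 fold change reversed for *Acvrl1* (0.033 with endothelial scaling, 0.066 without both mice), *Bmpr2* (0.040 with library size, 0.087 with endothelial scaling, and -0.28 to 0.074 with mice left out), *Id1* (0.043, 0.086, and -0.27 to 0.0053), *Id2* (-0.12 with quality weights, -0.34 without both mice, and -0.10 to 0.77) and *Smad7* (-0.79 to 0.018). With mice left out the ratio differences ranged from -0.91 to 0.029 for *Id1* to *Id2*, -0.25 to 0.13 for *Eng* to *Acvrl1*, -0.16 to 0.38 for *Bmpr2* to *Acvrl1*, -1.56 to -0.33 for *Smad6* to *Smad7* and 0.39 to 1.27 for *Tgfbr2* to *Tgfbr1*. *Eng*, *Tgfbr1*, *Tgfbr2*, *Smad6* and *Id3* stayed below 0 in all 17 alternatives. Dividing by the longest transcript in place of all exon bases raised the control level of *Id3* to 1213, *Id1* to 377.5, *Eng* to 277.8 and *Bmpr2* to 16.5 CPM per kilobase.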
